A study of Homo sapiens with 6 samples.

Results

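The genes described here are the numbered zinc finger (ZNF) genes of chromosome 19, picked by a rule on position and name. A gene was a member if the deposited table placed it on chromosome 19 and its NCBI Gene ID belonged to a current symbol made of ZNF, a number and at most 1 letter. Of the 16623 genes measured, 236 were members, out of 1244 genes on chromosome 19 and 489 ZNF genes of this name pattern on all chromosomes. RefSeq lists 263 such symbols on chromosome 19, including 17 pseudogenes, and 27 of them were not members. ZNF544 was measured but its chromosome entry was unreadable, so it was not counted.

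The RNA came from MDA-MB-231 cells, an established human triple-negative breast cancer line, and no genetic change was introduced into any group. The cells were treated with PCI-24781, a small-molecule histone deacetylase (HDAC) inhibitor, at 100 nM or 200 nM, or with the solvent DMSO, for 24 h or 48 h. Each of the 6 conditions (DMSO 24 h, 100 nM 24 h, 200 nM 24 h, DMSO 48 h, 100 nM 48 h and 200 nM 48 h) had 1 library, so no difference has a replicate check and no p-value is given. Values are FPKM, fragments per kilobase of transcript scaled to the total of mapped fragments, and changes are log2 ratios of FPKM + 1, which understate the change of low genes.

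Most proteins of this family carry a row of C2H2 zinc fingers that reads DNA and, in front of it, a KRAB domain that recruits the corepressor TRIM28 (KAP1). TRIM28 in turn brings the histone H3 lysine methyltransferase SETDB1, HP1 proteins and the NuRD complex, which contains HDAC1 and HDAC2. Many members bind transposable elements and keep them silent, and the genes lie on chromosome 19 in clusters that grew by duplication.

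Markers of the labelled line were checked: the mesenchymal gene VIM lay between 1629 and 2053 FPKM and CD44 between 154 and 218.7, while the hormone receptor genes ESR1 and PGR did not exceed 0.04 and ERBB2, the third receptor gene, lay between 13.16 and 21.36. Steps in the lowest FPKM values gave an approximate depth of 15750000 to 17950000 fragments assigned to genes. At that depth 3 fragments on a 2 kb transcript correspond to 0.0836 to 0.0952 FPKM, and a member's median was 101 to 122 fragments. The 2 DMSO libraries were far apart, with 8.51% of tested genes at least 1.5-fold higher and 1.95% at least 1.5-fold lower at 48 h than at 24 h. In ZNF428 and CHD3, singled out after their values were seen, DMSO was above 100 nM at 24 h and below it at 48 h. Over all genes, the number at 0 FPKM was 1708, 1380 and 1130 in DMSO, 100 nM and 200 nM at 24 h, and 1391, 1614 and 1178 at 48 h. Genes with exactly the DMSO 24 h value made up 9.17% in 100 nM 48 h and 7.47% in DMSO 48 h. The labels are used as given. An exchange of DMSO 48 h and 100 nM 48 h could not be checked. It would turn the sign of every 100 nM 48 h change and alter the reference at 200 nM 48 h. Time of treatment and the handling of each library cannot be told apart, so member results are also given against the DMSO library of the other time where they depend on it.

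The members were expressed at low levels. Their median FPKM was 2.16 in DMSO 24 h, 2.12 in 100 nM 24 h and 2.17 in 200 nM 24 h, and 1.97, 2.04 and 2.0 in the matching 48 h libraries, where the median over all genes was 5.17 to 5.64. In at least 1 library 190 members reached 1 FPKM, 160 reached it in all 6, and 46 stayed below 1 throughout. Only 17 members reached 10 FPKM in any library. The highest was ZNF146 (chr19:36705504-36729676), whose protein consists of zinc fingers with no KRAB domain, at 41.13, 42.38 and 41.47 FPKM at 24 h in DMSO, 100 nM and 200 nM, and 37.75, 33.12 and 37.99 at 48 h. After it, by mean level, came ZNF114, ZNF358, ZNF580, ZNF787, ZNF581, ZNF274 and ZNF584. Of these 8, 5 are among the 43 members without KRAB letters, described further on.

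At 24 h the family as a whole sat slightly higher in treated than in DMSO cells, by far less than a doubling for nearly every gene. Summed over the 236 members, FPKM was 739 in DMSO 24 h, 783 in 100 nM and 856 in 200 nM. ZNF114 accounts for part of this, and without it the sums were 717, 757 and 793. At 48 h the sums were 750, 763 and 770, or 728, 742 and 734 without ZNF114. Thus the summed level stepped up with dose at 24 h with or without ZNF114, and at 48 h only with it. In bulk RNA, more cells expressing a gene and more of its RNA per cell cannot be told apart.

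Gene by gene, the comparison at each dose used the members with at least 1 FPKM in either library, which at 24 h were 184 for the lower and 189 for the higher dose, and at 48 h 177 and 180. At 100 nM 24 h the median member change was 0.08 on the log2 scale, with 117 members higher and 65 lower (63.6% higher, against 51.6% of all tested genes). At 200 nM 24 h it was 0.14, with 131 higher and 54 lower (69.3%, against 51.2%). The median over all tested genes was 0.01 in both comparisons. Other chromosome 19 genes had medians of 0.00 at 100 nM and 0.06 at 200 nM, and ZNF genes of other chromosomes had 0.02 and -0.02. These counts describe 1 pair of libraries each and were not tested.

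The plot of cumulative changes shows how the members differ from all genes: their curve is shifted to the right at 24 h and is also steeper. At 200 nM 24 h the standard deviation of the change was 0.29 over members, 0.38 over ZNF genes of other chromosomes and 0.52 over all genes. At 48 h members and ZNF genes of other chromosomes were nearly alike, at 0.175 and 0.176 with 100 nM and 0.164 and 0.168 with 200 nM. A spread narrower than that of all genes is thus not particular to the members. Members also have lower levels than most genes, where FPKM + 1 understates changes, and the part of this was not tested. Few members reached a large change. Only ZNF114 was at least 2-fold higher at 200 nM 24 h (1 of 189, against 4.49% of all genes) and no member was 2-fold lower (1.48% of all genes). No member passed 2-fold in either direction in the other 3 comparisons, where the shares of all genes higher and lower were 1.35% and 0.131% (100 nM 24 h), 0.0608% and 0.408% (100 nM 48 h), and 0.206% and 0.06% (200 nM 48 h). At 1.5-fold, 8 members were higher at 200 nM 24 h (4.23%, against 12.5%) and 2 were lower (1.06%, against 7.62%), and at 100 nM 24 h none was higher (5.58% of all genes) and 1 was lower (1.25%).

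**Figure D1:**
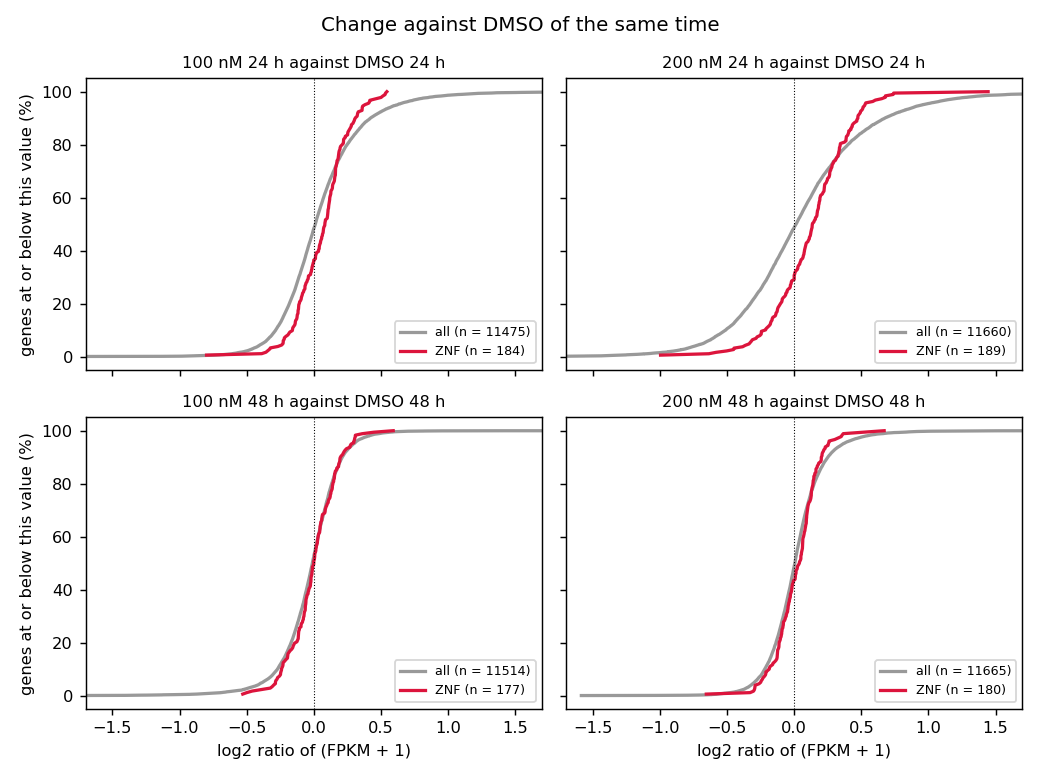
Cumulative share of genes (%) at or below each log2 ratio of (FPKM + 1) for 236 chromosome 19 ZNF genes (red, those tested) and all tested genes (grey) in the 4 comparisons with DMSO of the same time. At 24 h the red curve crosses 0 at a lower share than the grey one, with medians of 0.08 and 0.14, while at 48 h the curves lie close together, with medians of 0.00 and 0.04.

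ZNF114 (chr19:48773356-48791000, outside any cluster) was the member with the largest change. Its level was 22.19 FPKM in DMSO 24 h, 25.33 in 100 nM and 62.10 in 200 nM, and 22.24, 21.29 and 35.98 at 48 h. The 4 libraries without 200 nM PCI-24781 lay between 21.29 and 25.33 FPKM, and both 200 nM libraries were above them. Its change was 1.44 at 200 nM 24 h and 0.67 at 200 nM 48 h, against 0.18 and -0.06 at 100 nM. The protein carries KRAB letters and only 3 zinc fingers, against a member median of 13, and 6.50% of its transcript's 32-base windows occur in another gene.

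The next largest increases at 24 h were in genes with modest levels. ZNF480 (chr19:52800422-52829180) was at 3.56 FPKM in DMSO 24 h, 5.65 in 100 nM and 6.62 in 200 nM, then 3.84, 3.63 and 4.60 at 48 h. ZNF121 (chr19:9676404-9695209) was at 4.39, 6.79 and 7.63 FPKM at 24 h and 5.48, 4.47 and 6.45 at 48 h. In both genes the 3 levels ordered with dose at 24 h, and at 48 h the 100 nM library was the lowest. ZNF491 was at 0.74, 1.32 and 1.90 FPKM at 24 h and 0.89, 1.08 and 1.09 at 48 h, and ZNF461 was at 0.83, 1.59 and 1.93 and then 1.18, 0.86 and 1.17. Their changes at 200 nM 24 h were 0.74 for ZNF480 and ZNF491 and 0.68 for ZNF121 and ZNF461. ZNF559 (0.65), ZNF875 (0.60) and ZNF585A, which at 1.36 and 2.54 FPKM was at the threshold on the FPKM + 1 scale, complete the 8 members at least 1.5-fold higher and are named here after their values were seen. ZNF559 shares 15.65% of its 32-base transcript windows with the readthrough gene ZNF559-ZNF177, so its reads are uncertain. ZNF585A shares 22.2% of its windows with other genes, mostly with ZNF585B (17.3%), and is uncertain likewise.

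The 2 members at least 1.5-fold lower at 200 nM 24 h, ZNF428 and ZNF784, have transcripts of 61.3% and 64.8% GC and 1 and 6 zinc fingers. ZNF428 (chr19:44111371-44124014) was at 14.15 FPKM in DMSO 24 h, 7.71 in 100 nM and 6.60 in 200 nM. At 48 h it was at 9.83, 15.32 and 5.88, so the 100 nM 48 h library held its highest value and the 200 nM 48 h library its lowest. Its changes with 100 nM and 200 nM were -0.80 and -0.995 after 24 h, and 0.59 and -0.65 after 48 h. It was also the 1 member lower by 1.5-fold at 100 nM 24 h. SRRM5, which overlaps ZNF428 on the other strand, did not exceed 0.36 FPKM. ZNF784 (chr19:56132107-56135941) was at 2.20, 1.5 and 1.06 FPKM at 24 h and 1.90, 2.15 and 2.02 at 48 h, so only its 24 h libraries ordered with dose. ZNF358 (chr19:7581004-7585911) was at 19.48, 17.80 and 16.28 FPKM at 24 h and 27.19, 37.45 and 22.00 at 48 h, again with the highest value at 100 nM 48 h.

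**Figure D2:**
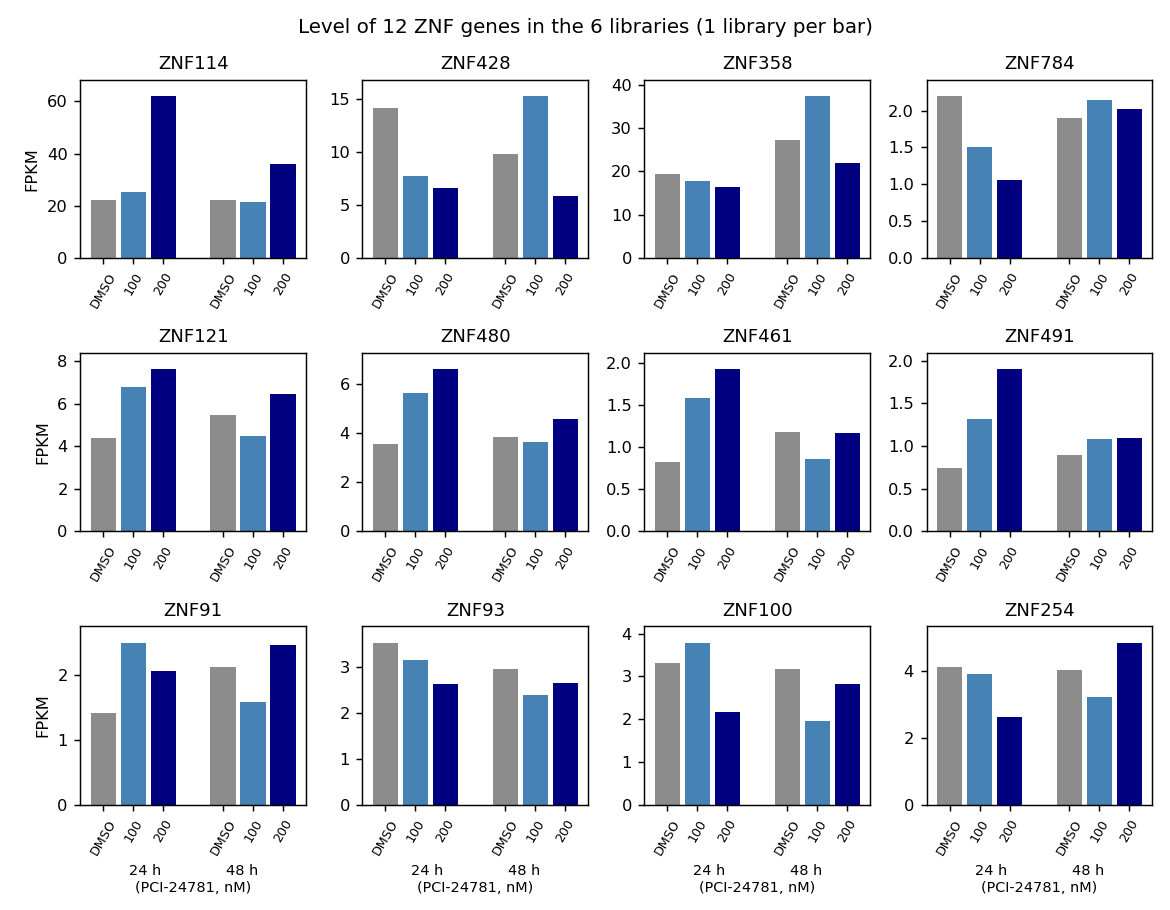
FPKM of 12 ZNF genes in the 6 libraries, 1 bar per library with axes from 0 (grey DMSO, light blue 100 nM, dark blue 200 nM PCI-24781). ZNF114 stands out only in the 200 nM libraries (62.10 and 35.98 FPKM), ZNF428 is highest at 100 nM 48 h (15.32), and ZNF100 is lowest at 100 nM 48 h (1.96).

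At 48 h the family showed almost no common shift. The median change was 0.00 at 100 nM, with 87 members higher and 87 lower (49.2% higher, against 47.2% of all tested genes), and 0.04 at 200 nM, with 102 higher and 78 lower (56.7%, against 51.0%). At 1.5-fold, ZNF428 was the only member higher at 100 nM (0.504% of all genes) and none was lower (1.76%). At 200 nM ZNF114 was the only one higher (1.53%) and ZNF428 the only one lower (0.463%). Between the DMSO libraries themselves, 80 members had a higher and 95 a lower level in the later library (45.5% higher, against 49.6%), with a median of -0.03 and no member past 1.5-fold. The largest difference between DMSO libraries was in ZNF226, at 7.22 FPKM at 24 h and 11.31 at 48 h.

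Against the DMSO library of the other time the medians stayed near these values, at 0.08 and 0.14 for 24 h and -0.01 and 0.01 for 48 h. The step from 100 nM to 200 nM, which needs no DMSO library, had a member median of 0.06 at 24 h, with 125 of 188 higher (66.5%, against 49.1% of all genes), and of 0.02 at 48 h, with 98 of 180 higher (54.4%, against 52.0%). Other chromosome 19 genes also stepped up at 24 h (median 0.05, 59.0% higher), and ZNF genes of other chromosomes did not (-0.04, 43.5%). At 48 h these 2 sets had medians of -0.08 and 0.02. Counting error alone gives a single member's change a median standard deviation of 0.12. Of the 183 tested members with a known transcript length, 67 were higher and 14 lower by more than 2 counting standard deviations at 200 nM 24 h. With 100 nM they were 35 and 10 of 178 at the earlier time and 15 and 16 of 171 at the later one. With 200 nM at 48 h they were 18 and 10 of 174. ZNF114 had no known length and is not in these counts. The same shares over all genes were not computed, so the counts have no background beside them. Differences between cultures or library preparations come on top of counting error and cannot be estimated here.

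Among the members that differed from DMSO in the same direction in all 4 comparisons, those with the largest smallest change upward were ZNF221, ZNF223, ZNF329, ZNF491 and ZNF880. ZNF880 was at 0.85, 1.07 and 1.57 FPKM at 24 h and 0.63, 1.02 and 1.33 at 48 h, and ZNF221 at 1.53, 2.07 and 2.65 and then 1.60, 2.04 and 1.99. Downward they were ZNF430, ZNF530, ZNF565, ZNF614 and ZNF93. ZNF530 was at 2.48, 1.66 and 2.19 FPKM at 24 h and 1.78, 1.30 and 1.27 at 48 h. ZNF565 was at 1.58, 1.28 and 1.29 and then 1.64, 0.92 and 1.47, and it overlaps ZNF146 on the other strand at their start sites. Both doses of a time were set against the same DMSO library, so agreement between doses is not independent.

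Along the chromosome 222 of the 236 members fell into 8 clusters, taken as runs of at least 5 members with gaps below 1 Mb between starts, and 14 lay outside. Coordinates are those of the deposited tables, in hg19. Clusters 1 to 3 span chr19:2819872-2944969 (5 members), chr19:7069471-9879410 (14) and chr19:11594242-12740676 (25) on the short arm, and cluster 4 spans chr19:19778962-24312770 (32) close to the centromere. On the long arm, clusters 5 to 8 span chr19:36672962-38270230 (26), chr19:44037340-45579688 (24), chr19:52074531-54083523 (38) and chr19:55987699-59000900 (58). Cluster 4 holds ZNF91, a repressor of SVA retrotransposons, and ZNF93, a repressor of L1 elements.

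At 24 h the clusters differed. At 200 nM the cluster medians were 0.35, 0.21, 0.12, -0.03, 0.19, 0.19, 0.24 and 0.07 from cluster 1 to 8, and -0.02 outside clusters. Cluster 1 had only 4 tested members. Without drug, all 4 rose from the earlier to the later DMSO library, with a median change of 0.33. The other clusters had medians between -0.05 and 0.10 in that comparison. The 0.35 of cluster 1 thus depends on which DMSO library is the reference. In cluster 7, 25 of 30 tested members were higher and 4 lower, and in cluster 5, 18 of 21 were higher and 3 lower. Of all tested genes 51.2% were higher. Other tested genes starting within clusters 2 and 3 had medians of 0.06 (28 genes) and 0.49 (3 genes). Those within clusters 5 to 8 had 0.02 (4), 0.03 (17), 0.01 (4) and 0.27 (15). Clusters 1 and 4 held no other tested gene. Cluster 4 was split, with 10 higher and 11 lower, and held 3 of the 5 largest decreases: ZNF714, ZNF254 and ZNF100. At 100 nM 24 h, however, cluster 4 had a median of 0.15, with 14 of 21 higher, against 51.6% of all tested genes. ZNF91 and ZNF675 were among the 5 largest increases in that comparison.

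At 100 nM 48 h cluster 4 stood apart from the other clusters. Of its 19 tested members 18 were lower and 1, ZNF493, was higher, with a median of -0.26, while the medians of the other 7 clusters lay between -0.06 and 0.05. Of all tested genes 47.2% were higher in this comparison. The share of the members' variance that lay between clusters was 25.4% in this comparison, and 7.49%, 10.8% and 4.72% at 100 nM 24 h, 200 nM 24 h and 200 nM 48 h. Of the 5 largest decreases there, 4 were cluster 4 genes: ZNF14 (2.78 to 1.62 FPKM), ZNF100 (3.18 to 1.96), ZNF101 (4.66 to 3.32) and ZNF675 (3.08 to 2.26), an inhibitor of TRAF6 signalling. ZNF493, the exception, went from 1.11 to 1.71. At 200 nM 48 h the cluster median was -0.11, with 7 of 20 higher and 13 lower, where 51.0% of all tested genes were higher. Against DMSO 24 h, 100 nM 48 h gave a cluster median of -0.28, and 200 nM 48 h one of -0.03. If the DMSO 48 h and 100 nM 48 h libraries were exchanged, the sign of the cluster's change at 100 nM 48 h would turn.

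**Figure D3:**
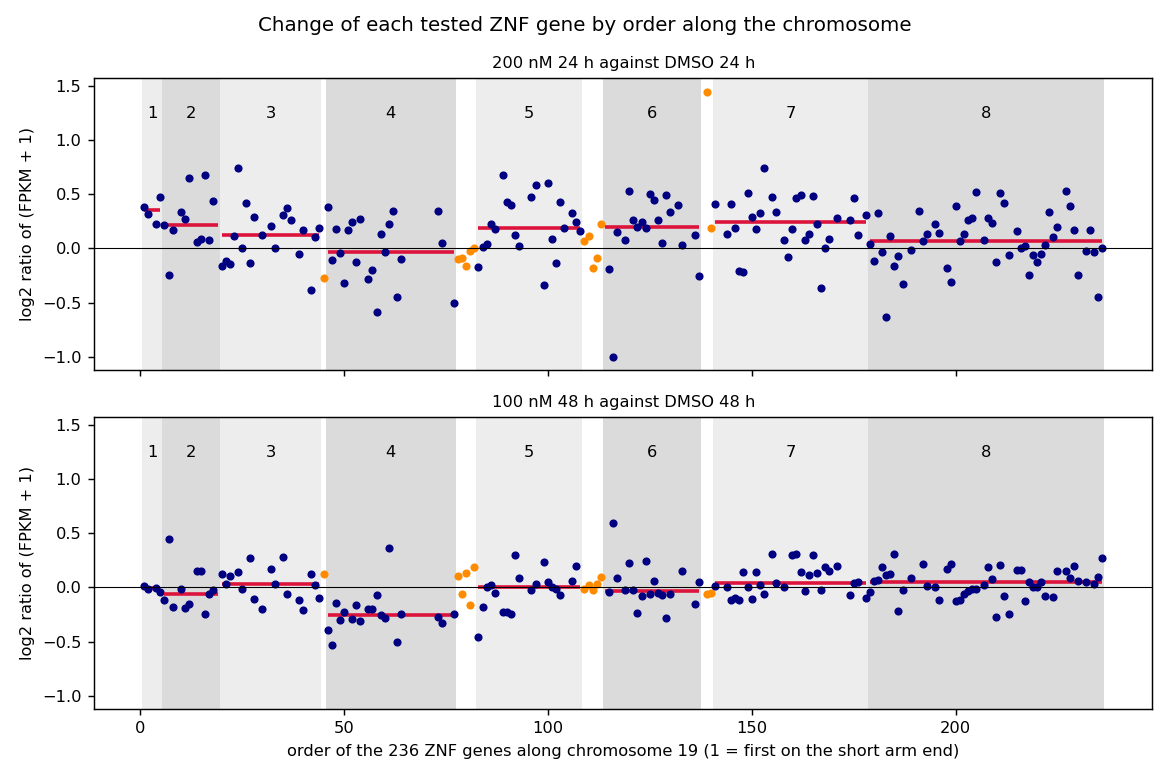
Log2 ratio of (FPKM + 1) of each tested ZNF gene, in order along chromosome 19, at 200 nM 24 h (top) and 100 nM 48 h (bottom), with shaded clusters 1 to 8, their medians as red lines and genes outside clusters in orange. Cluster 4 has a median of -0.26 at 100 nM 48 h, with 18 of 19 genes below 0, and the other clusters lie between -0.06 and 0.05.

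Cluster 4 also differs in composition, which moves with its result. Its transcripts had a median GC content of 37.6%, the lowest of the clusters, against 42.6% over members and 49.8% over all genes. At 100 nM 48 h the GC-poor transcripts of the whole series were lower too: among all tested genes with transcripts below 40% GC the median was -0.11 and 23.2% were higher. Below that same GC content, 14 members in cluster 4 had a median of -0.25, with 1 higher, and 24 members elsewhere had 0.02, with 13 higher and 10 lower. Members of cluster 4 also shared a median of 19.1% of their 32-base transcript windows with other genes, against 21.7% in cluster 3 and 2.65 to 9.50% in the rest, so part of their reads could have been assigned to relatives. The part of GC content and of read sharing in the pattern was not tested.

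The named members of cluster 4 can be read one at a time. ZNF91 (chr19:23540498-23578362) was at 1.41, 2.49 and 2.06 FPKM at 24 h and 2.11, 1.58 and 2.46 at 48 h, so it was above DMSO in 3 of the 4 treated libraries. ZNF93 (chr19:20011722-20046382) was at 3.54, 3.17 and 2.64 and then 2.97, 2.39 and 2.66, below DMSO in all 4. ZNF486, the highest member of the cluster by mean, was at 6.56, 7.82 and 5.94 and then 6.62, 5.80 and 5.99. ZNF100 was at 3.32, 3.79 and 2.16 and then 3.18, 1.96 and 2.83, and ZNF254 at 4.13, 3.90 and 2.62 and then 4.02, 3.23 and 4.85. In ZNF100, ZNF254 and ZNF486 the lowest value at 24 h was at 200 nM and the lowest at 48 h was at 100 nM. For ZNF430 the values were 3.14, 2.83 and 2.61, then 3.01, 2.50 and 2.53.

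The promoters of cluster 4 resemble each other, with 4 examples in the next sequences. Each is the 300-base window from 250 bases before to 50 bases after the first listed start in RefSeq (GRCh38.p14 coordinates), 5′ to 3′ along the gene. Capitals mark the searched words CCGGAAG, an ETS-type core, CCAAT, the NF-Y core, GGGCGG, the GC box, and TGACGTCA, the cyclic AMP response element, on either strand. The first 4 are cluster 4 genes with CCGGAAG, read here as its reverse complement CTTCCGG, close to the start, and the last 2 are ZNF428 and ZNF121 from other clusters.
ZNF91, chr19:23395422-23395721, minus strand: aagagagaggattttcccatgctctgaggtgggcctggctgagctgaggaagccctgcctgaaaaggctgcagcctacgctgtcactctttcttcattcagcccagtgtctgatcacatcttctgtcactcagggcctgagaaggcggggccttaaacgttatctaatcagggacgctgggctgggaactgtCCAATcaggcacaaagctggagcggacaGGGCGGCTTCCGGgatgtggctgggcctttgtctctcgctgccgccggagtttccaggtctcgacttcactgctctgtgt
ZNF254, chr19:24086937-24087236, plus strand: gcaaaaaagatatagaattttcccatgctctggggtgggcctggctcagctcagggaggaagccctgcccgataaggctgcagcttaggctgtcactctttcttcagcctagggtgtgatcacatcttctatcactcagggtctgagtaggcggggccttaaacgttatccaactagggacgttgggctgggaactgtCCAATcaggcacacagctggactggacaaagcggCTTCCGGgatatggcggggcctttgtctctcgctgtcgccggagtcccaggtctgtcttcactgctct
ZNF100, chr19:21767530-21767829, minus strand: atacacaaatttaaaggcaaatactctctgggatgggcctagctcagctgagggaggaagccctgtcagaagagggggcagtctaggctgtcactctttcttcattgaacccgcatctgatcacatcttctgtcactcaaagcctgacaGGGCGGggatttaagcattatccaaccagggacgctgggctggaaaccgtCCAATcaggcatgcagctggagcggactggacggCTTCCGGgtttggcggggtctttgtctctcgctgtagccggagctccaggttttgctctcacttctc
ZNF430, chr19:21020407-21020706, plus strand: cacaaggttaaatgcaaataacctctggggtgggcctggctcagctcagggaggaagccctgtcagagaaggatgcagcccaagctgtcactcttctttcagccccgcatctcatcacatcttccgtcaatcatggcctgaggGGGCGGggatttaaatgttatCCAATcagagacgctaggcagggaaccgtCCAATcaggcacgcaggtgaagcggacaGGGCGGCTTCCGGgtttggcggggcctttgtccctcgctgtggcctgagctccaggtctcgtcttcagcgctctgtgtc
ZNF428, chr19:43619580-43619879, minus strand: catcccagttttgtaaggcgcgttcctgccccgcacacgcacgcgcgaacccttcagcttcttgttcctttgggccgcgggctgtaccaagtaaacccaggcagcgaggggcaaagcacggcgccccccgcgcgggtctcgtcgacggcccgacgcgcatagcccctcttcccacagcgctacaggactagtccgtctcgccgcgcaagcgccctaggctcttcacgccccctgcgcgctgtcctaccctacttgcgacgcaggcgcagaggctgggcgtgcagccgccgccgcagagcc
ZNF121, chr19:9584455-9584754, minus strand: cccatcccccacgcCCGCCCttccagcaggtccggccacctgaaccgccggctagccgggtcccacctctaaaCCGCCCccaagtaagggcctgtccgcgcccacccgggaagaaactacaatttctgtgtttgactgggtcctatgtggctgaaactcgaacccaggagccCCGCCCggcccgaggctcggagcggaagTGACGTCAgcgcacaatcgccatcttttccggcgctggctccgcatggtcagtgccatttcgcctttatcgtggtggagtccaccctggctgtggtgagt

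In these sequences the block around CCAAT and CTTCCGG recurs in the same order in all 4 cluster 4 genes. The 4 are shown as genes with CTTCCGG, which 18 of 26 cluster 4 promoters held, so its recurrence in them is not a result. ZNF91 and ZNF254 were identical at 87.0% of 300 aligned bases, while ZNF91 and ZNF428 were identical at 58.7%. Over all pairs within a cluster the median identity was 79.0% in cluster 4 and 59.3 to 64.0% in the other clusters. Cluster 4 promoters held a median of 10 CpG dinucleotides, against 20 over all members and 37 in ZNF428.

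Over the 208 members with a promoter in RefSeq, 44.2% held CCGGAAG on either strand, against 16.2% of the promoters of genes in the tables and 10.7% of all 27305 promoters of this length. CCAAT was in 52.9%, against 36.2% and 35.7%, TATAAA, the TATA core, in 1.92%, against 7.32% and 11.95%, and GGGCGG in 66.8%, against 64.3% and 44.6%. TGACGTCA and TCGCGA were each in 3.37% of members, against 2.84% and 5.06% of the genes in the tables. At 200 nM 24 h the 74 tested members with CCGGAAG had a median of 0.11, with 48 higher and 25 lower, and the 96 without had 0.16, with 68 higher and 25 lower. With 100 nM for 24 h the order was the opposite, with medians of 0.10 with the letters and 0.04 without. CCGGAAG was in 18 of 26 promoters of cluster 4, 19 of 31 of cluster 7 and 32 of 53 of cluster 8. It was in 0 of 5, 4 of 13 and 2 of 24 promoters of clusters 1 to 3. Clusters 5 and 6 held it in 7 of 25 and 6 of 20. A match says only that these letters occur in the window.

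The KRAB core was searched as a letter pattern in the longest GENCODE protein of each gene, and 193 members held it and 43 did not. A letter pattern can miss a true domain, so the second set is a mixture. At 200 nM 24 h the tested members with KRAB letters had a median of 0.17, with 113 higher and 38 lower of 154, and those without had 0.01, with 18 higher and 16 lower of 35. At 100 nM 24 h the medians were 0.09 and 0.04. At 48 h they were -0.01 and 0.06 at 100 nM and 0.05 and -0.01 at 200 nM. The summed FPKM of members with KRAB letters was 468, 510 and 584 at 24 h in DMSO, 100 nM and 200 nM, while that of members without them was 272, 273 and 272.

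**Figure D4:**
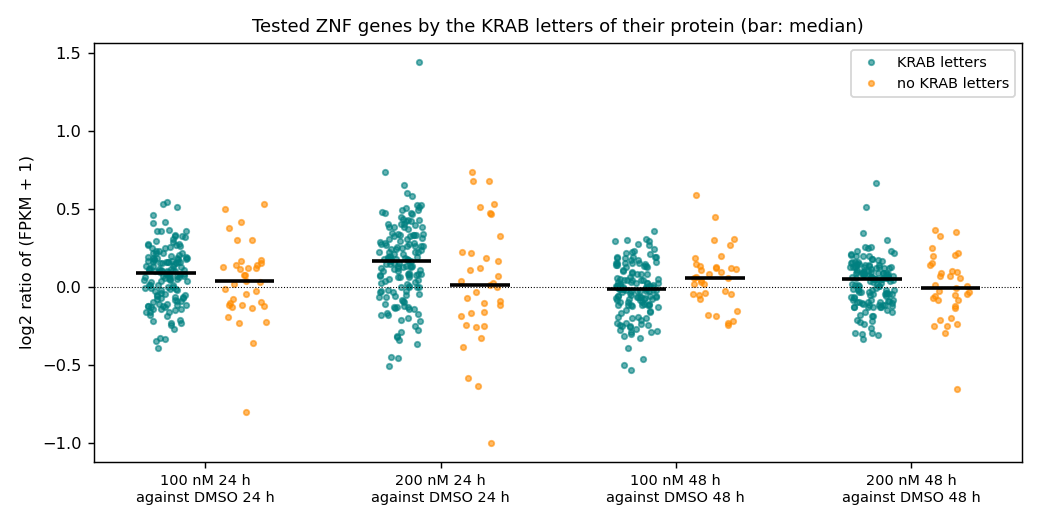
Log2 ratio of (FPKM + 1) of each tested ZNF gene with (teal) and without (orange) KRAB letters in the 4 comparisons, with black bars at the medians. At 200 nM 24 h the medians were 0.17 and 0.01, and the orange set contains both ZNF428 (-0.995) and ZNF491 (0.74).

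GC content moves with this split, since the median transcript GC content was 42.2% with KRAB letters and 57.8% without. Among all genes split into 3 equal parts by transcript GC content, the GC-poor part lay below 45.0%, and in it the 119 tested members had a median of 0.18 at 200 nM 24 h, with 76.5% higher, where all genes of that part had -0.01, with 48.6% higher. In the middle part the members' median was 0.15, with 69.8% higher, against 0.00 and 50.2%. In the GC-rich part (above 55.1%) 21 members had a median of -0.09, with 23.8% higher, where all genes had 0.06, with 55.2% higher. The upward shift of members at 200 nM 24 h thus lay in the GC-poor and middle parts, and their GC-rich members stood on the other side of all genes. Split by the number of fingers, from 1 to 36, into 3 ranges from few to many, the members had medians of 0.16, 0.13 and 0.16 at 200 nM 24 h, and of 0.10, 0.10 and 0.02 with 100 nM for 24 h. Members sharing less than 20% of their windows with other genes had a median of 0.17, with 106 of 143 higher, and those sharing more had 0.05, with 25 of 46 higher.

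Several members have described roles in silencing or tumours. ZNF274 (chr19:58694356-58724928), which binds the 3′ ends of zinc finger genes and recruits SETDB1 to them, was at 11.51, 12.99 and 15.38 FPKM at 24 h and 10.02, 10.69 and 11.93 at 48 h. ZNF224, a repressor and WT1 cofactor, was at 5.85, 6.52 and 8.36 and then 6.89, 7.23 and 8.05. Both genes were higher at each step of dose at 24 h and at 48 h. ZNF350, known as ZBRK1 and a partner of BRCA1, was at 1.12, 1.37 and 1.81 and then 1.60, 1.40 and 1.58, and ZNF331, an imprinted gene, at 2.03, 2.29 and 2.76 and then 2.36, 2.15 and 1.85. In these 2 genes the level went up with dose at 24 h and not at 48 h.

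Members known for promoter methylation in tumours had low levels. ZNF382 lay between 0.21 and 0.40 FPKM, ZNF577 between 0.17 and 0.41, ZNF154 between 0.38 and 0.57 and ZNF132 between 0.40 and 1.01. ZNF471 was at 0.68, 1.04 and 1.13 FPKM in the 24 h libraries and 0.78, 0.50 and 1.09 in the 48 h ones, and ZNF671 at 1.33, 1.35 and 1.60 and then 1.04, 1.28 and 0.95. ZNF382, ZNF577 and ZNF154 stayed below 1 FPKM and were not among the tested members.

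Some members cannot be separated from relatives by sequence. A median of 8.6% of a member's 32-base windows occurred in another gene, but for ZNF320 it was 99.5%, for ZNF177 98.4% and for ZNF98 68.9%, and 8 members overlap a gene on the other strand. Use of strand in the counting is not given in the sources used here, so reads of overlapping genes cannot be told apart.

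A mixed list of 28 silencing genes was mostly lower at 24 h, where the zinc finger genes were mostly higher. It holds TRIM28, SETDB1, HP1 and NuRD genes together with DNA methylation and other chromatin genes, so it is not only the machinery that KRAB domains recruit. The 6 that were higher at 200 nM 24 h were ATRX (0.50), MPHOSPH8 (0.36), HDAC2 (0.21), ATF7IP (0.19), HDAC1 (0.12) and MORC2 (0.08). All 28 listed genes were measured, and 7 were higher and 21 lower at 100 nM 24 h (median -0.11) and 6 higher and 22 lower at 200 nM 24 h (median -0.21), so that 25% and 21.4% were higher, against 51.6% and 51.2% of all genes. In the latter, 1 was at least 2-fold lower (3.57%, against 1.48%) and 6 at least 1.5-fold lower (21.4%, against 7.62%). CHD3, a NuRD remodeller, was at 26.63, 15.34 and 9.77 FPKM at 24 h and 19.79, 29.79 and 14.35 at 48 h. CBX5, the gene of HP1 alpha, was at 18.44, 12.94 and 9.75 and then 15.79, 17.87 and 12.63. Like ZNF428, both were highest of the 48 h libraries at 100 nM. UHRF1, RBBP4, DNMT1 and SUV39H1 were the other 4 past 1.5-fold, with changes of -0.76, -0.61, -0.59 and -0.59. TRIM28 itself was at 145.3, 131.3 and 130.1 FPKM at 24 h and 122.0, 117.2 and 114.3 at 48 h, and SETDB1 at 8.27, 7.32 and 8.07 and then 7.85, 8.77 and 8.03. ATRX was the only 1 at least 1.5-fold higher, at 100 nM 24 h (3.41 to 5.95 FPKM), where 5.58% of all genes were. At 48 h 16 were higher and 12 lower at 100 nM and 11 and 17 at 200 nM. That is 57.1% and 39.3% higher, against 47.2% and 51.0% of all genes. Between the DMSO libraries 25 of the 28 were lower at 48 h, with a median of -0.13 (10.7% higher, against 49.6% of all genes). By the labels, this difference without drug was at least as one-sided in count as those with drug at 24 h. It rests on the DMSO 48 h library, whose exchange with 100 nM 48 h could not be checked.

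**Figure D5:**
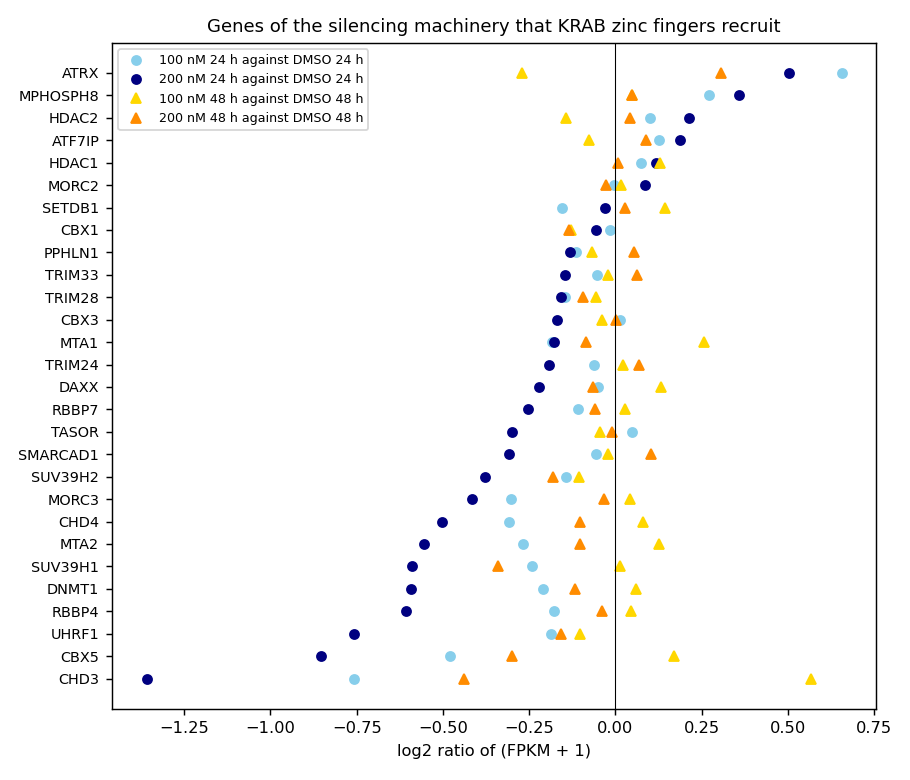
Log2 ratio of (FPKM + 1) of 28 genes of the TRIM28, SETDB1, HP1, HUSH, NuRD and DNA methylation machinery in the 4 comparisons with DMSO of the same time (circles 24 h, triangles 48 h), ordered by the 200 nM 24 h value. CHD3 (-1.36) and CBX5 (-0.85) are lowest and ATRX (0.50) highest at 200 nM 24 h.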

How the data were processed

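RNA from 6 MDA-MB-231 cultures was sequenced, 1 library per condition. The authors deposited FPKM per gene, rounded to 2 decimals. The submitters' processing notes name Bowtie2, RSEM and hg19, with no version, and FPKM depends on gene length and on the total of each library. From these values log2(FPKM + 1) was compared between libraries with Python 3.11.15, pandas 2.3.3 and numpy 2.4.6, and drawn with matplotlib 3.10.9. A gene was tested at 1 FPKM or more in either library and called at 2-fold, with 1.5-fold as an alternative. With 1 library per group, and FPKM in place of counts, no test was run and no p-value computed, and a model treating the 2 times as replicates of a dose was not run. The calls were tried on simulated data with counting error only, in which large changes were given to better expressed genes. The simulation does not cover small changes of low genes, as in most members, or differences between cultures. An exact tie counts as reaching a fold. Symbols came from RefSeq by Gene ID (16585 of 16623 matched), transcripts and proteins from GENCODE 29 and promoters from RefSeq. Member lengths were known for 228 genes. Genes are named if called, among the 8 highest, among the 5 largest changes of a comparison or of those going 1 way in all 4, highest of a cluster, or from a list with described roles. Members and lists were chosen with earlier results of these data known.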

Additional observations from a re-analysis of the deposited data

Results flagged for a closer look

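Among the named genes, 9 members were flagged because both treated libraries of 24 h lay on 1 side of their DMSO library and both treated libraries of 48 h on the opposite side. The difference between the times was not tested, since each condition has 1 library, and both doses share a DMSO library. Many named genes were picked for having the largest changes in a comparison. The share of all tested genes with this pattern was not computed, so the count of 9 is not a result about the members. The size given is the mean change at 24 h minus the mean change at 48 h. It was 0.523 for ZNF675, 0.518 for ZNF101, 0.708 for ZNF461, 0.38 for ZNF331, 0.347 for ZNF350 and 0.316 for ZNF791, which were above DMSO at 24 h and below it at 48 h. It was -0.585 for ZNF784, -0.423 for ZNF653 and -0.385 for ZNF581, which were below DMSO at 24 h and above it at 48 h. At 200 nM 48 h the change was only -0.01 in both ZNF461 and ZNF350. ZNF653 was at 3.08, 2.57 and 2.64 FPKM at 24 h and 2.71, 3.04 and 3.78 at 48 h, and ZNF581 at 15.62, 13.18 and 13.89 and then 19.09, 23.89 and 20.15.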

How the results depend on the processing

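The median change of the members, the counts called, the median of the cluster that holds ZNF91 and the dose steps were recomputed under alternatives. No paired analysis was possible because the labels carry no replicate numbers, and leaving out a library would remove its condition. A model blocking on time was not run. A median was taken as moved past 0.05, a limit chosen after the values were seen. No median of 0.05 or more changed sign. At 200 nM 24 h the member median of 0.14 became 0.21 with a pseudocount of 0.1, 0.22 with 0.01 and 0.21 as TPM, and over all settings it lay between 0.12 and 0.22. In that comparison the 2-fold calls higher and lower, 1 and 0 in the main setting, were 3 and 1 with a pseudocount of 0.1, 3 and 2 with 0.01, 4 and 1 as TPM, and 8 and 2 at a 1.5-fold threshold. With 0.1 the added genes were ZNF461, ZNF491 and, lower, ZNF428. A pseudocount of 0.01 gave 1 member higher at 200 nM 48 h, and DMSO 24 h as reference gave 1 lower there. At 1.5-fold, 100 nM 24 h had 1 lower, 100 nM 48 h 1 higher, and 200 nM 48 h 1 higher and 1 lower. The median of the cluster that holds ZNF91 at 100 nM 48 h, -0.26, was -0.38 with a pseudocount of 0.1, -0.40 with 0.01, -0.19 with no filter and -0.31 as TPM. At 200 nM 48 h, -0.11, it was -0.0059 with no filter and -0.035 against DMSO 24 h. Its 0.15 for 100 nM 24 h became 0.21 with a pseudocount of 0.01, and at 200 nM 24 h, -0.03, it was 0.063 as TPM. Median-of-ratios factors and 1 FPKM in both libraries changed none of these by more than the limits. Neither did clusters split at 0.5 Mb for the cluster median, or KRAB letters only for the member medians, the results for which they were run. The cause of each shift was not tested. A pseudocount of 1 shrinks changes of low genes, and the median level of the members was 1.97 to 2.17 FPKM across the libraries. Depth leaves a median counting error of 0.12 per member.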

Other observations

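ZNF544, whose chromosome entry was unreadable in the tables, was at 12.12, 15.05 and 15.30 FPKM at 24 h in DMSO, 100 nM and 200 nM, and 10.21, 9.63 and 10.81 at 48 h. ZNF177, which stayed below 1 FPKM and shares 98.4% of its windows with ZNF559-ZNF177, was at 0.25, 0.66 and 0.92 FPKM at 24 h and 0.69, 0.30 and 0.20 at 48 h, named here after its values were seen. Its 24 h values went up with dose and its 48 h values went down. Some cluster 4 genes, also named after their values were seen, had almost no signal: ZNF208 did not exceed 0.04 FPKM, ZNF676 0.01, ZNF728 0.06, ZNF730 0.09 and ZNF98 0.21.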
